A study of Mus musculus with 12 samples.

Results

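The regions described here are the 50 peaks of open chromatin, among 48443 in the deposited mouse (mm10) count table, that overlap or lie within 200 bp of a gene annotated in RefSeq as a small nucleolar RNA (snoRNA). They touch 54 of the 1340 annotated snoRNA genes: 36 peaks overlap such a gene by at least 1 bp and 14 lie beside one. Accessibility was measured by ATAC-seq, in which the Tn5 transposase cuts and tags DNA that is not covered by nucleosomes, so that the read count of a peak follows how open that site is. The assay reads DNA, not snoRNA, and gives no measure of transcript levels.

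Naive CD4+ T cells, sorted as CD44-CD62L+CD25- from spleens of C57BL/6 wild-type mice, were stimulated with plate-bound antibodies to CD3 and CD28, each at 1 µg/ml, and harvested at 68 h. There were 4 groups of 3 libraries, 1 from each of the same 3 animals: Th17n cells with DFMO, Th17n cells with vehicle, iTreg cells with DFMO and iTreg cells with vehicle. Th17n cells were taken to be the protocol's non-pathogenic Th17 culture, with IL-6 at 25 ng/ml and TGF-beta1 at 2 ng/ml, whereas iTreg cells received TGF-beta1 at 2 ng/ml alone. DFMO (difluoromethylornithine), an inhibitor of ornithine decarboxylase and so of polyamine synthesis, was given at 100 µM, and the labels do not name the vehicle. The cells were differentiated in vitro, live-sorted and frozen before the assay, all animals carried the same genotype, and no knockout is part of these data.

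A snoRNA acts in the nucleolus as part of a ribonucleoprotein. Box C/D snoRNAs guide ribose methylation of ribosomal RNA (rRNA) with fibrillarin, box H/ACA snoRNAs guide pseudouridylation with dyskerin, and a few are needed for rRNA cleavage instead. In mammals most are cut out of introns of host genes, often long non-coding RNAs (lncRNAs) or ribosomal protein genes whose transcripts begin with a pyrimidine tract, while U8 (Snord118) and U13 (Snord13) are transcribed from promoters of their own. Activated T cells build many ribosomes, and snoRNA host genes belong to that programme.

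Of the 54 genes, 12 carry box C/D symbols (Snord), 7 box H/ACA symbols (Snora) and 35 symbols that do not give a class. By position, 20 peaks covered an end of the gene model that holds the snoRNA, 17 lay inside such a host gene, and 13 were at snoRNA genes with no annotated host. Hosts were lncRNA genes for 15 peaks, protein-coding genes for 19 and genes of both kinds for 3, and 10 peaks lay in ribosomal protein genes. In 5 peaks 2 snoRNA genes were present: Snord49b with Snord49a, Snord104 with Gm22711, Snord53 with Gm22858, Snora44 with Snora61, and LOC115487282 with LOC115487311. LOC115487524, a snoRNA gene with no host, was flanked by 2 peaks, named here the left and the right peak by coordinate.

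Because many of these peaks are host promoters, the RefSeq (GRCm38.p6) sequence around the start of 7 lncRNA hosts is shown, namely those behind a peak that responded to DFMO, the most open peak and those with a pyrimidine-tract start. Each line runs 5′ to 3′ over 100 bases, with the annotated start site at base 51. Capitals mark the start base and the unbroken run of C and T that follows it, or the start base alone where it is a purine. Gas5 and 1110038B12Rik each have another annotated start in the peak that begins with a purine, without such a run, and it is not shown.
Gas5, chr1:161035116-161035215, plus strand: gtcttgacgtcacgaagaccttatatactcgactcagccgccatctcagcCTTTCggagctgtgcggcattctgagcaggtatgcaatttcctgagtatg
Rab26os, chr17:24528201-24528300, plus strand: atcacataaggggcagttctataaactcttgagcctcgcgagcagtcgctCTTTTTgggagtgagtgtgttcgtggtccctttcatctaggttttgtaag
1110038B12Rik, chr17:34952419-34952518, minus strand: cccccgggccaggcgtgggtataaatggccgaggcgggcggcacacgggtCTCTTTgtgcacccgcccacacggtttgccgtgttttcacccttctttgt
5730408K05Rik, chr19:8888721-8888820, minus strand: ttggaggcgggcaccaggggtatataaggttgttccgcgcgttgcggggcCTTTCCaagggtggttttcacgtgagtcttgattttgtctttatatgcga
Gm36220, chr11:106500865-106500964, plus strand: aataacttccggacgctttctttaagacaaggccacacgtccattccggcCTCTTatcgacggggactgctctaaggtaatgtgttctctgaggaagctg
2410006H16Rik, chr11:62602827-62602926, plus strand: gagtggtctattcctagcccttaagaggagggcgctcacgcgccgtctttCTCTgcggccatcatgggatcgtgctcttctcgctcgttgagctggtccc
Snhg15, chr11:6528711-6528810, minus strand: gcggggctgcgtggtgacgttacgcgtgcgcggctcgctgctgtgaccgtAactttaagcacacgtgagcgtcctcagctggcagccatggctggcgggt
Such a start, a C followed by at least 4 pyrimidines, was found in 5 of 20 RefSeq start windows of hosts (25%), against 2.39% of the 12104 windows whose start lies in any peak and 2.51% of all 32851 windows. The hosts with it were Gas5, Rab26os, 1110038B12Rik, 5730408K05Rik and Gm36220. None of the ribosomal protein hosts with a window (Rpl7a, Rpl23, Rpl6, Rpl13 and Rps2) met this rule at its annotated start. Rpl7a starts with a run of 7 pyrimidines but fails the rule because the run begins with T. Snhg15 starts with a purine and 2410006H16Rik with a run of 4 pyrimidines. This feature was searched after the data had been seen. Over the full 300-base windows and on both strands, the E-box letters CACGTG were present in 30% of host windows, against 10.8% of windows whose start lies in a peak and 7.15% of all windows. GGGCGG was present in 80%, 68.5% and 35.7% of those windows, TATAAA in 30%, 5.81% and 13.6%, CCGGAAG in 25%, 19.0% and 8.86%, CCAAT in 40%, 37.1% and 37.4%, and TCTCGCG in 15%, 5.68% and 2.56%. The 20 windows lie in 16 peaks, and some overlap, such as those of Rps2 with Snhg9 and the pair of 1110038B12Rik. Counted by peak, TATAAA was present in 4 of the 16, TCTCGCG in 2, CACGTG in 6 and the pyrimidine start in 5. Each share thus rests on few genes, and a match of letters shows no bound factor.

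Peaks at snoRNA loci were wider than most, with a median width of 628.5 bp (179 to 1876) against 480 bp for all peaks. Their levels are given as CPM, counts per 1000000 scaled counts in peaks. The median over members of the mean CPM was 20.4, against 10.0 for all peaks and 33.4 for peaks at ends of protein-coding genes. Per kb of peak the medians were 26.7, 22.0 and 37.5 CPM. The snoRNA peaks therefore lay between the general peak and the gene-end peak on both scales, and they differed among themselves by position. At host ends the median was 50.8 CPM per kb, inside hosts 20.2 and without a host 15.4.

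The highest peak held the Rab26os start with LOC115488833, at 141.6 CPM on average over the 12 libraries and 123.1 CPM per kb. It was followed in CPM by the peaks of Gas5 (114.0), a host of many box C/D snoRNAs that is named for growth arrest, of Zfas1 (98.1), a lncRNA host of box C/D snoRNAs, and of Ddx39b (88.2), an RNA helicase gene. At the low end stood Gm24793, with no host, at 1.35 CPM and the peak of Gm27991, inside Mettl9, at 1.59 CPM. The peaks of Snord118 (67.2 CPM per kb) and Snord13 (56.2 CPM per kb) were the most open of the 13 without a host. Of the host peaks, 5 also hold the start of a neighbouring gene, namely Zbtb37 with Gas5, Traf7 with Rab26os, Znfx1 with Zfas1, Med22 with Rpl7a and 1810009A15Rik with Snora57, so their signal cannot be assigned to the host alone. Of the 50, those at LOC115487929, Gm22372, Gm27991, Gm24793 and Gm25582 failed the filter on low counts, so 45 were tested. Some snoRNA genes have near-identical copies elsewhere, and the treatment of reads that match several places is not stated in the labels, so counts at such loci are uncertain.

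**Figure D1:**
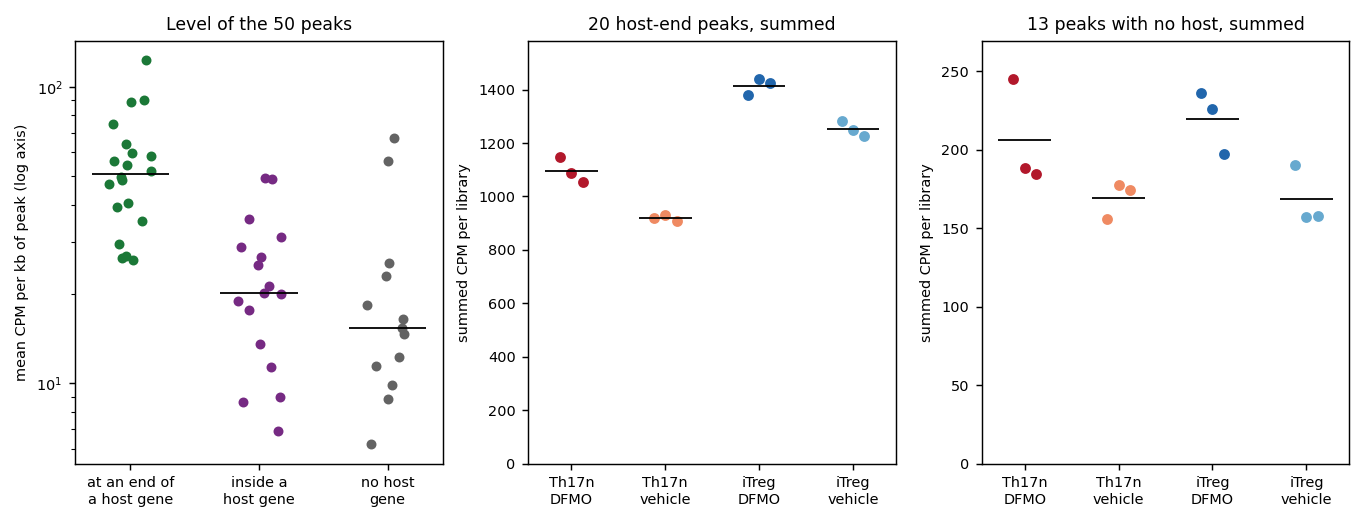
Left, mean CPM per kb over 12 libraries for each of the 50 snoRNA-locus peaks by position, on a log axis, with a line at the median. Middle and right, summed CPM of the 20 host-end peaks and of the 13 peaks without a host in each library, with a line at the mean of 3 libraries; host-end peaks sum to more in DFMO than in vehicle libraries of each lineage and to more in iTreg than in Th17n libraries.

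The libraries held 1020937 to 6496550 counts in peaks, with the smallest and the largest both among Th17n vehicle libraries. The 3 libraries of a group come from different animals. The p-values rest on the spread among libraries within groups, estimated over all 4 groups together and with information shared among peaks. The main fit does not pair the libraries of an animal. T cell genes (Cd3e, Cd4, Cd5 and Lck) summed to 123.0 to 155.5 CPM per library over all groups. Singly, their group means were 32.3 to 50.69 CPM for Cd3e, 25.41 to 37.11 for Cd4, 39.69 to 53.45 for Cd5 and 19.8 to 26.53 for Lck. No gene-end peak was present for the NK cell markers Ncr1 and Klrb1c, for Ms4a1 and Pax5 of B cells or for Lyz2, Csf1r and Itgam of myeloid cells, and the remaining gene-end peaks, Cd8b1, Cd79a and Spi1, reached at most 24.1, 26.8 and 13.7 CPM. The Cd79a group means, 17.25 to 23.15 CPM, were near those of Lck. The Cd79a and Spi1 peaks lie 904 bp and 468 bp from the gene end. The Th17 genes Il17a, Il17f and Il23r summed to 17.5 to 25.7 CPM in Th17n DFMO, 37.8 to 41.4 in Th17n vehicle, 2.97 to 9.64 in iTreg DFMO and 2.91 to 3.56 in iTreg vehicle. Foxp3 had no gene-end peak, and the other Treg genes (Ikzf2, Il2ra and Ctla4) summed to 107.8 to 150.7 CPM over all groups. With DFMO, Ikzf2 was lower in Th17n than in iTreg cells (-0.81, adjusted p = 0.0041) and Ctla4 higher (1.22, adjusted p = 0.00057), and none of the 3 was called between the lineages with vehicle. Cd8a had no gene-end peak, whereas Cd8b1 had 17.0 to 21.8 CPM in Th17n vehicle and 5.18 to 12.9 CPM in iTreg vehicle libraries, and its part in the lineage results was not tested. In these cultures a smaller share of cells with an open site and a smaller opening per cell cannot be told apart.

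With DFMO, the peaks of the independently transcribed snoRNAs U8 and U13 opened in Th17n cells, as did the promoter of Snhg15 and the Snora57 locus, while 3 peaks inside a host gene or without one closed. In all, 7 of 45 tested peaks were called at an adjusted p below 0.05 (15.6%; 4 higher, 3 lower), against 8.78% of all 43726 tested peaks (4.5% higher, 4.28% lower). The median log2 fold change was 0.22 over the snoRNA peaks and 0.01 over all. Adjusted p-values are from edgeR's quasi-likelihood test with Benjamini-Hochberg adjustment over all tested peaks, and errors of log2 fold changes are standard errors. Where factors were taken from gene-end peaks only, 6 were called, 2 higher and 4 lower, in place of 4 and 3. The count was 3 or 4 without Th17n DFMO library 1 or 2 or any Th17n vehicle library, and 11 without iTreg DFMO library 2. The Th17 marker sum was also lower with DFMO in Th17n cells, as given above, and its part in these changes was not tested.

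The Snord118 peak (chr11:69073144-69074023), which also overlaps the neighbouring gene Tmem107, had 87.8, 69.4 and 55.8 CPM in Th17n cells with DFMO from animals 1, 2 and 3, against 31.1, 31.4 and 30.6 CPM with vehicle. The groups did not overlap, and the lowest DFMO library stood well above the highest vehicle library. The log2 fold change was 1.22 ± 0.18 (adjusted p = 1.1e-05), and the call held under each of 18 alternatives, 12 of which leave out 1 library. U8, a box C/D RNA, is required for maturation of the large-subunit rRNAs.

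In iTreg cells the same peak had 71.7, 85.0 and 56.3 CPM with DFMO, against 78.7, 53.8 and 56.9 CPM with vehicle, which overlap. The log2 fold change there was 0.18 ± 0.17 (adjusted p = 0.56). The difference between the DFMO effects in Th17n and in iTreg cells, tested as an interaction, was 1.03 ± 0.25 on the log2 scale (adjusted p = 0.019). It was the single interaction called among 45 snoRNA peaks (2.22%), against 1.31% of all tested peaks (0.835% higher, 0.478% lower). A positive interaction was not particular to this locus. Of 38 tested peaks within 200 bp of a snRNA gene, 15.8% had a called interaction (6 higher, 0 lower). Of 151 within 200 bp of a tRNA gene, 3.97% had one (6 higher, 0 lower). For Snord118, 3 of the 4 groups had means of 63.1 to 71.0 CPM, and Th17n with vehicle stood apart at 31.1 ± 0.388 CPM (SD, n = 3). The interaction was lost on thinning to equal depth (adjusted p = 0.198). It was also lost on leaving out any Th17n vehicle library, Th17n DFMO library 1 or 2, or iTreg DFMO library 1 or 3 (adjusted p = 0.0514 to 0.179).

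The Snord13 peak (chr8:31149476-31150587), which also overlaps the gene Tti2, had 85.9, 48.1 and 70.1 CPM in Th17n cells with DFMO, against 34.9, 33.1 and 46.1 CPM with vehicle. In iTreg cells it had 95.2, 78.6 and 93.9 CPM with DFMO, against 58.0, 54.4 and 51.5 CPM with vehicle. No DFMO library overlapped its vehicle group in either lineage. U13 guides acetylation of the small-subunit rRNA. The log2 fold changes were 0.84 ± 0.17 in Th17n (adjusted p = 0.0013) and 0.72 ± 0.16 in iTreg (adjusted p = 0.0034), with an interaction of 0.13 ± 0.24 (adjusted p = 0.87). The Th17n call was lost without Th17n DFMO library 1 (adjusted p = 0.0957) and without Th17n vehicle library 2 (0.0505), whereas the iTreg call held in each of 18 alternatives.

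The Snora57 peak (chr19:8888551-8889241) lies at the start of the lncRNA 5730408K05Rik, inside the Lbhd1 model, and also holds Mir5136. It had 46.9, 41.8 and 37.0 CPM in Th17n cells with DFMO, against 23.6, 30.3 and 26.0 CPM with vehicle. In iTreg cells it had 57.8, 53.4 and 62.5 CPM with DFMO, against 47.1, 37.1 and 30.3 CPM with vehicle. The groups did not overlap in either lineage. The log2 fold changes were nearly equal, at 0.62 ± 0.20 (adjusted p = 0.035) in Th17n and 0.64 ± 0.18 (adjusted p = 0.021) in iTreg. Both calls were fragile: the Th17n call was lost in 12 of 18 alternatives, among them each of the 6 Th17n libraries and iTreg DFMO library 1 or 3 left out (adjusted p = 0.0519 to 0.249), and the iTreg call in 4, namely without iTreg DFMO library 3, without iTreg vehicle library 2 or 3 and on thinning. Averaged over lineages the change was 0.63 ± 0.13 (adjusted p = 0.00074), and that call held in each of the 18.

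The Snhg15 start with LOC115487884 (chr11:6528303-6528984) had 36.4, 32.8 and 37.6 CPM in Th17n cells with DFMO, against 10.4, 27.3 and 20.3 CPM with vehicle. The lowest vehicle value belongs to the library with the fewest counts in peaks. The groups did not overlap, with a log2 fold change of 0.72 ± 0.22 (adjusted p = 0.027). The call was lost without any of the DFMO libraries or without vehicle library 1 or 3 (adjusted p = 0.0673 to 0.153), on thinning and with gene-end factors (0.0516). In iTreg cells the change was 0.30 ± 0.20 (adjusted p = 0.38), and averaged over lineages it was 0.51 ± 0.15 (adjusted p = 0.012), a call lost on thinning (0.0575).

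The other 3 calls in Th17n cells were losses. The peak holding Snord53 and Gm22858 inside Wdr43 (chr17:71640718-71641682), a gene for an rRNA processing factor, had 7.16, 7.24 and 6.49 CPM with DFMO, against 29.3, 11.6 and 25.5 CPM with vehicle. The groups did not overlap, although vehicle animal 2 was low, and the log2 fold change was -1.58 ± 0.40 (adjusted p = 0.0078). Without vehicle library 3 the call was lost (adjusted p = 0.081). The peak at the Wdr43 gene start, 56.4 CPM with DFMO and 46.6 CPM with vehicle on average, was not called (0.23 ± 0.16, adjusted p = 0.41).

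The right peak of LOC115487524 (chr10:12992066-12992256) had 1.95, 1.28 and 1.95 CPM with DFMO, against 7.55, 8.53 and 7.73 CPM with vehicle. The groups stood far apart on few counts, with a log2 fold change of -2.19 ± 0.57 (adjusted p = 0.0095) that lost its call without vehicle library 2 (0.0617). In iTreg cells this right peak had 0.989 to 3.01 CPM. It passed the count filter only through the Th17n vehicle group, where it is high, so its call is no independent support for a loss. The left peak of the same gene had 17.2, 18.3 and 11 CPM with DFMO, against 23.6, 32.1 and 22.9 CPM with vehicle, which do not overlap. Its change of -0.75 ± 0.29 was not called (adjusted p = 0.097). Gm25093 (chr15:44364105-44364353) had 0.325, 0.426 and 0 CPM with DFMO, against 5.66, 1.22 and 3.72 CPM with vehicle. This is a peak of 0 to 13 counts per library, and its change of -3.17 ± 1.05 (adjusted p = 0.047) was lost in 7 of 17 alternatives: by DESeq2 (0.0653), without any Th17n DFMO library (0.089 to 0.151), without Th17n vehicle library 1 or 3 (0.107 and 0.176) or without iTreg vehicle library 2 (0.0573).

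**Figure D2:**
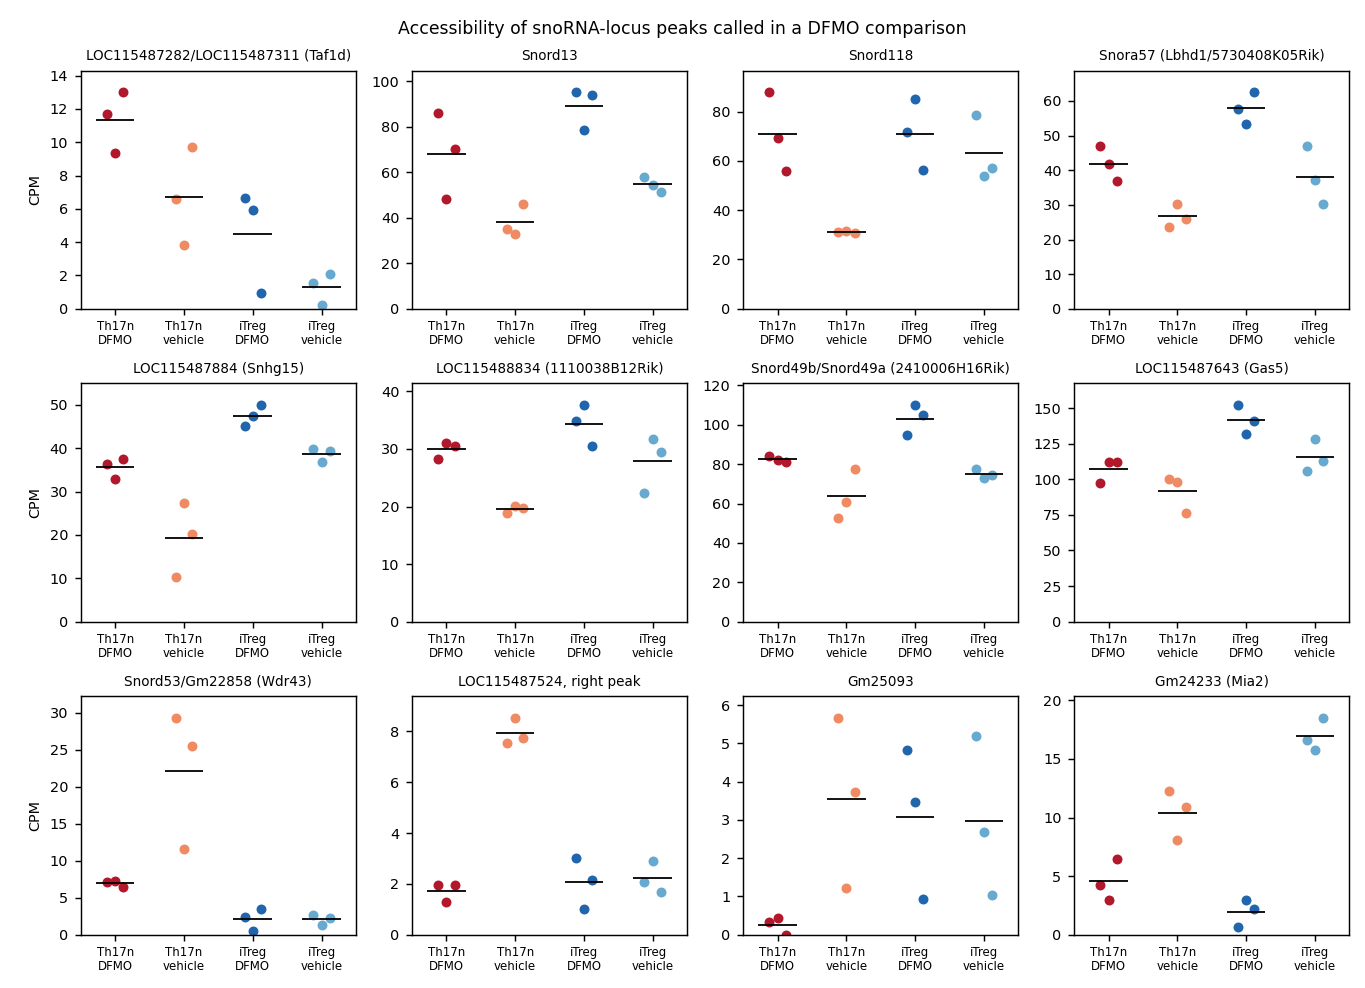
CPM of each library (points, animals 1 to 3 from left to right) and the group mean (line) for the 12 snoRNA-locus peaks called in at least 1 of the DFMO comparisons, ordered by the change averaged over lineages. Snord118 in Th17n vehicle libraries stood at 30.6 to 31.4 CPM, apart from the other 3 groups, and the peak beside Gm24233, inside Mia2, was lowest in iTreg DFMO libraries.

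In iTreg cells DFMO opened Snord13, Snora57 and the Snord49 host promoter, and closed 1 peak inside Mia2. The 4 calls (8.89% of 45; 3 higher, 1 lower) compare with 8.56% of all tested peaks (3.84% higher, 4.72% lower), so the share was near the background. Of the 102 tested peaks within 1000 bp of a snoRNA gene, 14.7% were called. The median log2 fold change was 0.18 over snoRNA peaks and -0.01 over all. All 4 were also called with RLE factors and with gene-end factors. Without iTreg vehicle library 2 or 3 the count was 2. Of the marker genes, Ctla4 also fell with DFMO in iTreg cells, to 10.0 ± 2.86 CPM against 30.2 ± 4.68 CPM with vehicle (SD, n = 3; -1.54, edgeR adjusted p = 0.00016). Cd8b1 had 14.5 to 24.1 CPM with DFMO, against 5.18 to 12.9 CPM with vehicle (0.90, edgeR adjusted p = 0.054). Their part in these changes was not tested.

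The promoter of the lncRNA 2410006H16Rik with Snord49b and Snord49a (chr11:62602400-62603840) had 94.6, 110.0 and 105 CPM in iTreg cells with DFMO, against 77.7, 72.9 and 74.6 CPM with vehicle. The vehicle libraries lay close together and below all 3 DFMO libraries. The change was 0.47 ± 0.13 (adjusted p = 0.022), lost on thinning and without iTreg DFMO library 2 or 3 or iTreg vehicle library 2 or 3 (adjusted p = 0.0615 to 0.104). In Th17n cells the peak had 84.3, 82.2 and 81.1 CPM with DFMO, against 52.8, 60.6 and 77.8 CPM with vehicle, a change of 0.34 ± 0.14 that was not called (adjusted p = 0.12).

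The peak beside Gm24233 (chr12:59133675-59134014), inside Mia2, a gene for a cargo receptor of the secretory pathway, had 0.602, 2.97 and 2.16 CPM in iTreg cells with DFMO, against 16.6, 15.8 and 18.5 CPM with vehicle. The groups were separated by more than the spread of either. Its change of -3.06 ± 0.44 (adjusted p = 7.5e-06) was the farthest from 0 among the 45 in iTreg cells and held in each of 18 alternatives. In Th17n cells the values were 4.23, 2.98 and 6.49 CPM with DFMO, against 12.3, 8.07 and 10.9 CPM with vehicle, also without overlap, and the change was -1.17 ± 0.41 (adjusted p = 0.06). With gene-end factors that change was called (-1.26 ± 0.41, adjusted p = 0.0439). The interaction, 1.88 ± 0.63, was not called (adjusted p = 0.12). A neighbouring Mia2 peak (chr12:59132702-59133291) also fell in iTreg cells with DFMO, to 4.95 CPM against 13.5 CPM with vehicle (-1.39, adjusted p = 0.013). Another Mia2 peak (chr12:59130816-59131867) had 56.9 CPM with DFMO and 58.4 CPM with vehicle in iTreg cells (-0.03 ± 0.17, adjusted p = 0.946). The snoRNA gene lies 58 bp outside its peak.

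Averaged over the lineages, 9 of 45 snoRNA peaks were called (20.0%; 8 higher, 1 lower), against 16.2% of all tested peaks (8.02% higher, 8.18% lower), with medians of 0.18 and -0.00. The 8 higher were Snord13 (0.78 ± 0.12, adjusted p = 6.8e-06), Snord118 (0.70), Snora57, Snhg15, the Snord49 promoter (0.41), and 3 called in neither lineage alone. Gas5 rose by 0.26 ± 0.09 (adjusted p = 0.039), the 1110038B12Rik promoter with LOC115488834 by 0.43 ± 0.16 (0.048) and the Taf1d peak with LOC115487282 and LOC115487311 by 1.23 ± 0.41 (0.03). Gas5 had 97.3, 112 and 112 CPM in Th17n cells with DFMO, against 100.0, 98.2 and 76.4 CPM with vehicle, and 152, 132 and 141 CPM in iTreg cells with DFMO, against 106, 128 and 113 CPM with vehicle. The iTreg groups did not overlap, and the Th17n groups did.

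The 1110038B12Rik promoter had 28.3, 31.1 and 30.5 CPM in Th17n cells with DFMO, against 18.9, 20.1 and 19.7 CPM with vehicle, and 34.9, 37.6 and 30.5 CPM in iTreg cells with DFMO, against 22.3, 31.8 and 29.5 CPM with vehicle. The groups were apart in Th17n and overlapped in iTreg cells. The Taf1d peak, inside a gene for a subunit of the RNA polymerase I initiation factor, had 11.7, 9.37 and 13 CPM in Th17n cells with DFMO, against 6.61, 3.81 and 9.73 CPM with vehicle, and 6.63, 5.93 and 0.924 CPM in iTreg cells with DFMO, against 1.55, 0.222 and 2.08 CPM with vehicle. Its libraries overlapped in both lineages. These 3 averaged calls were weak: Gas5 was lost in 13 of 18 alternatives, 1110038B12Rik in 15 of 18, including each of the 12 libraries left out, and Taf1d in 6 of 17, each a library left out. The 10 libraries whose omission ended the Gas5 call were all but iTreg DFMO library 2 and iTreg vehicle library 2. Those for Taf1d were Th17n DFMO libraries 1 and 3, Th17n vehicle library 2, iTreg DFMO libraries 1 and 2 and iTreg vehicle library 2. With gene-end factors the averaged count was 6 higher and 2 lower.

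**Figure D3:**
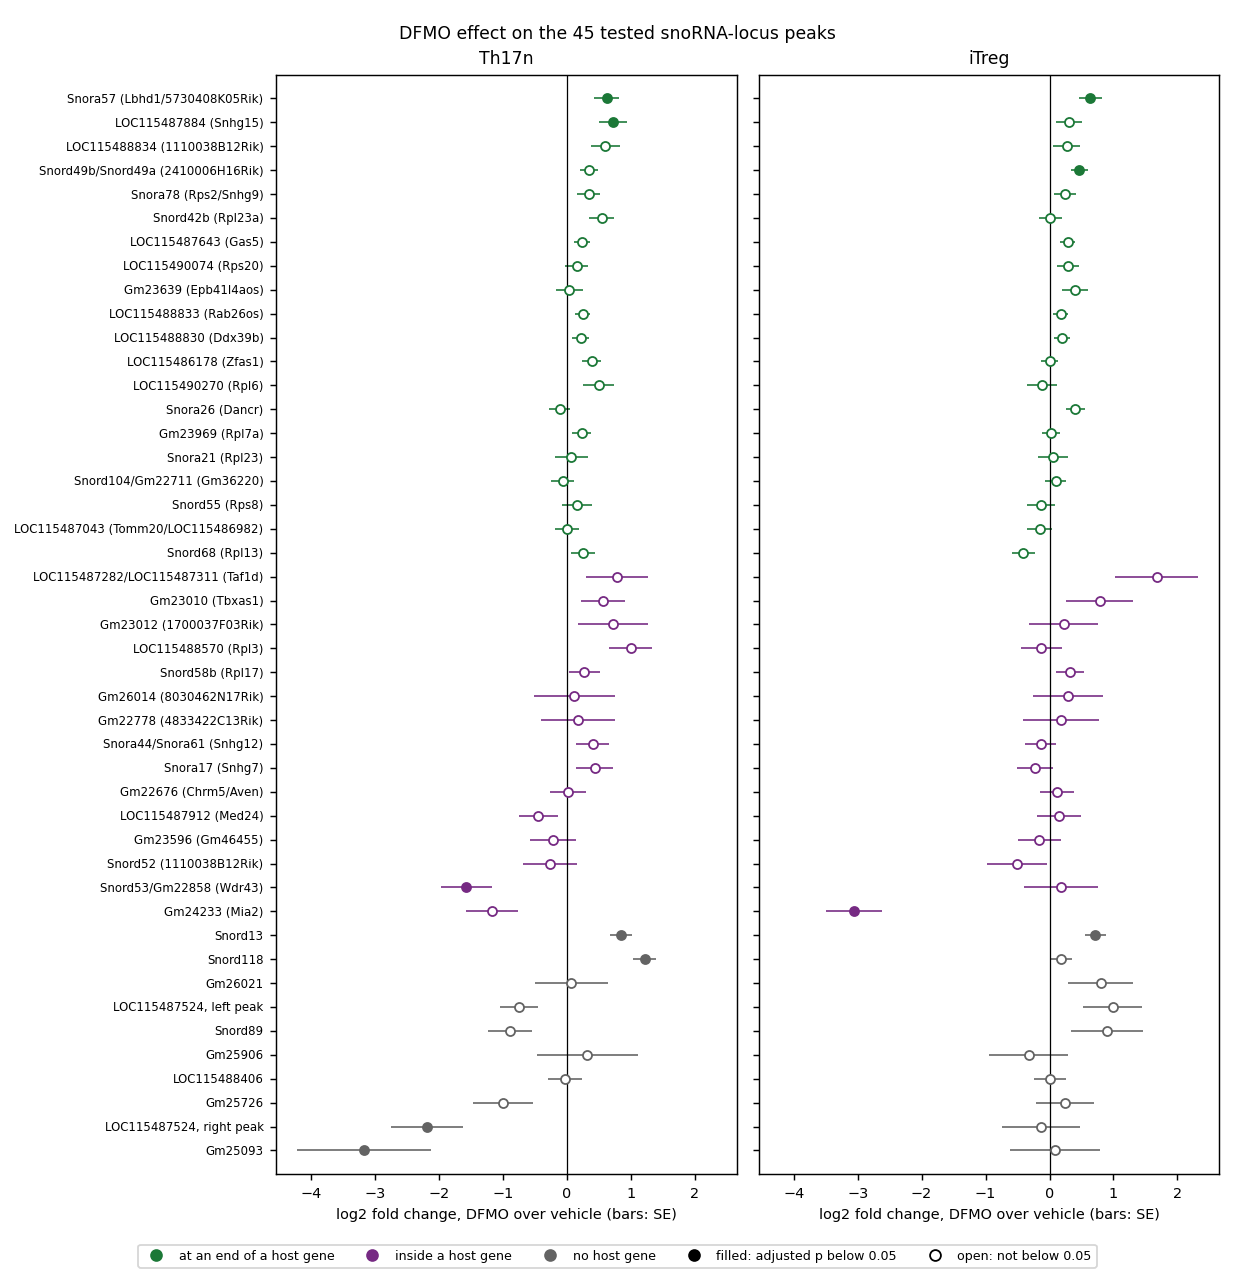
Log2 fold change of DFMO over vehicle with its standard error for each of the 45 tested snoRNA-locus peaks in Th17n (left) and iTreg cells (right), grouped by position; filled points have an adjusted p below 0.05. Of the 20 host-end peaks, 18 lie above 0 in Th17n and 15 in iTreg cells, and the called losses are all at peaks inside a host or without one. Of all 9242 tested peaks with a RefSeq start (not drawn), 5610 and 5185 lie above 0.

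By position, the 20 host-end peaks had a median DFMO change of 0.24 in Th17n cells, with 18 of 20 above 0, 2 called higher and 0 lower. In iTreg cells the median was 0.19, with 15 of 20 above 0, 2 called higher and 0 lower. Of all 9242 tested peaks that hold a RefSeq start, 5610 were above 0 in Th17n and 5185 in iTreg cells. Their medians were 0.08 and 0.05, with 6.67% (437 higher, 179 lower) and 7.6% (387 higher, 315 lower) called. The summed CPM of the 20 host-end peaks was 1053 to 1148 in Th17n DFMO libraries, against 908.0 to 932.3 in Th17n vehicle libraries, and 1378 to 1439 in iTreg DFMO libraries, against 1228 to 1283 in iTreg vehicle libraries. Neither pair of groups overlapped. These sums use factors from all tested peaks, and other start peaks were not summed for comparison. Gene-end factors moved the median DFMO change of all tested peaks from 0.01 to -0.07 in Th17n and from -0.01 to -0.04 in iTreg cells. Of the 10 peaks at ribosomal protein genes, 0 were called in either lineage by edgeR, with 3 and 1 at an unadjusted p below 0.05, against 10138 and 9963 of all 43726 tested peaks. The Rpl3 peak with LOC115488570, chosen after its values were seen, came nearest in Th17n cells, with 13, 13.6 and 17.5 CPM with DFMO, against 4.72, 7.62 and 8.01 CPM with vehicle (1.00 ± 0.34, adjusted p = 0.052). In iTreg cells its change was -0.13 ± 0.32 (adjusted p = 0.859). A neighbouring peak beyond the Rpl3 model end (chr15:80075748-80077225) rose with DFMO, to 98.0 CPM against 31.9 CPM with vehicle in Th17n cells (1.65, adjusted p = 9.6e-09) and to 91.3 CPM against 39.0 CPM in iTreg cells (1.23, adjusted p = 3.67e-06).

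Over all 45 tested peaks, groups did not overlap for 19 in Th17n cells (42.2%; 12 higher, 7 lower), against 29.5% of all tested peaks (14.6% higher, 14.9% lower). In iTreg cells they did not overlap for 12 (26.7%; 11 higher, 1 lower), against 23.6% (11.4% higher, 12.2% lower). Other small RNA genes, transcribed by RNA polymerase III or from snRNA promoters, were also compared, although most snoRNA peaks lie in host genes and so differ in kind. Of 151 tested peaks within 200 bp of a tRNA gene, 58.9% were called in Th17n cells with DFMO and 19.9% in iTreg cells, and of 38 within 200 bp of a snRNA gene 81.6% and 26.3%. The shares for the 45 snoRNA peaks were 15.6% and 8.89%, and for peaks that hold a RefSeq start 6.67% and 7.6%. Between the lineages with vehicle, 28 of the 38 snRNA-gene peaks were called lower in Th17n and 3 higher, and with DFMO 3 and 3. For the 151 tRNA-gene peaks these counts were 90 and 1 with vehicle, and 19 and 2 with DFMO. Of all tested peaks, 19.3% were called lower and 25.2% higher with vehicle, and 14.7% and 22.5% with DFMO. None of the snoRNA peaks lies within 200 bp of a tRNA or snRNA gene, the closest being 9578 bp and 7241 bp away.

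Genes of snoRNA particles and their assembly, of rRNA synthesis and processing and of the regulation of ribosome biogenesis were looked up at the peak nearest a gene end within 1000 bp, and 46 had a peak. In Th17n cells with DFMO 2 were called higher and 0 lower (4.35%), Nhp2 of the box H/ACA particle (0.79, adjusted p = 0.013) and Npm1, nucleophosmin (0.60, adjusted p = 0.0094). In iTreg cells 4 were called higher and 0 lower (8.7%): the box C/D core genes Nop56 (0.58, adjusted p = 0.0036) and Snu13 (0.76, 0.024), the H/ACA assembly factor Naf1 (0.54, 0.023) and Npm1 (0.64, 0.0032). The Npm1 and Naf1 peaks lie 632 bp and 130 bp from the gene end rather than on it. Over all tested peaks 8.78% and 8.56% were called, with 4.5% and 3.84% called higher. Fibrillarin (Fbl) and dyskerin (Dkc1), the enzymes of the particles, were not called in either lineage alone, at 0.56 and 0.42 in Th17n and -0.14 and 0.33 in iTreg cells. Averaged over the lineages, 11 of the 46 were called higher and 0 lower (23.9%). This compares with 16.2% of all tested peaks and 15.9% of protein-coding gene ends (1171 higher, 702 lower). Dkc1 was among the 11 (0.38, edgeR adjusted p = 0.0166), whereas Fbl was not (0.21, adjusted p = 0.503). Ruvbl2, Pih1d1, Ubtf and Larp1 had no gene-end peak.

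Between the lineages, host promoters of snoRNAs were mostly less open in Th17n than in iTreg cells, whereas a handful of snoRNA peaks away from promoters were far more open in Th17n cells. With vehicle, 27 of 45 were called (60.0%; 7 higher, 20 lower in Th17n), against 44.6% of all tested peaks (25.2% higher, 19.3% lower), with medians of -0.38 and -0.07. The 7 higher were 4 of 15 tested peaks inside a host and 3 of 10 without one, shares near the 25.2% of all tested peaks. Other peaks without a RefSeq start were not counted apart for comparison. The direction of the 20 lower calls rests on the scaling. With factors from gene-end peaks, which move the median of all peaks to 0.25, 10 were called, 7 higher and 3 lower, and with RLE factors 19, 7 higher and 12 lower. DESeq2 called 16, 7 higher and 9 lower. The count was 16 without Th17n vehicle library 2 or 3 and 17 without iTreg vehicle library 2. Protein-coding gene ends had a median of -0.33, with 457 higher and 3819 lower of 11792 (36.3% called). The 20 host-end peaks had a median of -0.45, with 14 called lower and 0 higher (70.0% called). Their median level was also higher, at 47.45 CPM against 33.37 CPM for gene ends, and its part in the calls was not tested.

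The 6 most strongly called higher peaks were Snord89, the left peak of LOC115487524, the Wdr43 peak with Snord53, and those of Gm23010, Taf1d and Med24. Each was higher in Th17n under both scalings. Snord89 (chr1:39548685-39549133), a box C/D snoRNA gene, had 17.9, 28.6 and 30.6 CPM in Th17n cells with vehicle, against 3.11, 2.22 and 1.04 CPM in iTreg cells with vehicle (3.77 ± 0.43, adjusted p = 8.0e-10). The left peak of LOC115487524 (chr10:12991187-12991708) had 23.6, 32.1 and 22.9 CPM in Th17n cells, against 1.55, 2.00 and 2.29 CPM in iTreg cells (3.69 ± 0.36, adjusted p = 1.5e-11). The Wdr43 peak had 29.3, 11.6 and 25.5 CPM in Th17n cells, against 2.59, 1.33 and 2.29 CPM in iTreg cells (3.38 ± 0.44, adjusted p = 2.4e-08). In none of these did the lineages overlap, and the 3 calls held in each of 18 alternatives. Another peak inside Wdr43 (chr17:71652793-71653402) differed the same way (2.40, adjusted p = 2.5e-07), while the peak at the Wdr43 start was lower in Th17n (-0.52, adjusted p = 0.0045).

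The remaining 3 were inside genes: Gm23010 in Tbxas1, which encodes thromboxane A synthase, at 2.53 ± 0.43 (adjusted p = 3.7e-06), the Taf1d peak at 2.35 ± 0.60 (0.0012) and LOC115487912 in Med24, a Mediator subunit gene, at 1.21 ± 0.31 (0.0013). The peak at the Taf1d start (-0.64, adjusted p = 0.004) and a gene-end peak of Med24 (-0.70, adjusted p = 0.011) were lower in Th17n. These and the Wdr43 start differed in the opposite direction from the snoRNA-bearing peak of the same host. A peak just past the other end of the Taf1d model (chr9:15317513-15318122) was higher in Th17n, like the snoRNA-bearing one (1.06, adjusted p = 0.0172). The values of these host peaks are with factors from all tested peaks. With gene-end factors the median of all peaks stands at 0.25, against -0.07.

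Among the lower peaks the smallest adjusted p belonged to Snord118, with 31.1, 31.4 and 30.6 CPM in Th17n vehicle libraries, against 78.7, 53.8 and 56.9 CPM in iTreg vehicle libraries (-0.99 ± 0.18, adjusted p = 1.1e-05). Its groups did not overlap, and the call held in each of 18 alternatives, gene-end factors included (-0.67, adjusted p = 0.00211). Rab26os had 122, 110.0 and 95.9 CPM in Th17n, against 162, 145 and 159 CPM in iTreg cells (-0.52 ± 0.12, adjusted p = 0.00027). The promoter shared by Rps2, a ribosomal protein gene, and the lncRNA Snhg9 with Snora78 had 21.7, 39.8 and 41.5 CPM in Th17n, against 71.5, 58.2 and 60.7 CPM in iTreg cells (-0.77 ± 0.17, adjusted p = 0.00032). Both pairs of groups were apart. With gene-end factors Rab26os was no longer called (-0.20, adjusted p = 0.177), while Snora78 was (-0.45, adjusted p = 0.0382).

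Zfas1 (-0.61 ± 0.14, adjusted p = 0.00034), Snhg15 (-0.84 ± 0.21, 0.0009) and Snord42b at Rpl23a (-0.65 ± 0.18, 0.0031) completed the 6 lower peaks with the smallest adjusted p. With gene-end factors Snhg15 kept its call (-0.52, adjusted p = 0.0424), which was lost on thinning (0.0816), whereas Zfas1 (-0.29, 0.0906) and Snord42b (-0.33, 0.174) lost theirs. Of the 10 peaks at ribosomal protein genes, 9 were called lower in Th17n with vehicle, against 19.3% of all tested peaks and 3819 of the 11792 protein-coding gene ends, and all 10 had a median of -0.60. The values ran to -0.87 at Rpl3, and the peak not called, at Rps20, stood at -0.27 (adjusted p = 0.207). Each of those 9 but Snora78 at Rps2 lost its call with gene-end factors. Non-overlap with vehicle was found for 30 of 45 (66.7%; 8 higher, 22 lower), against 53.3% of all tested peaks (27.8% higher, 25.5% lower).

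**Figure D4:**
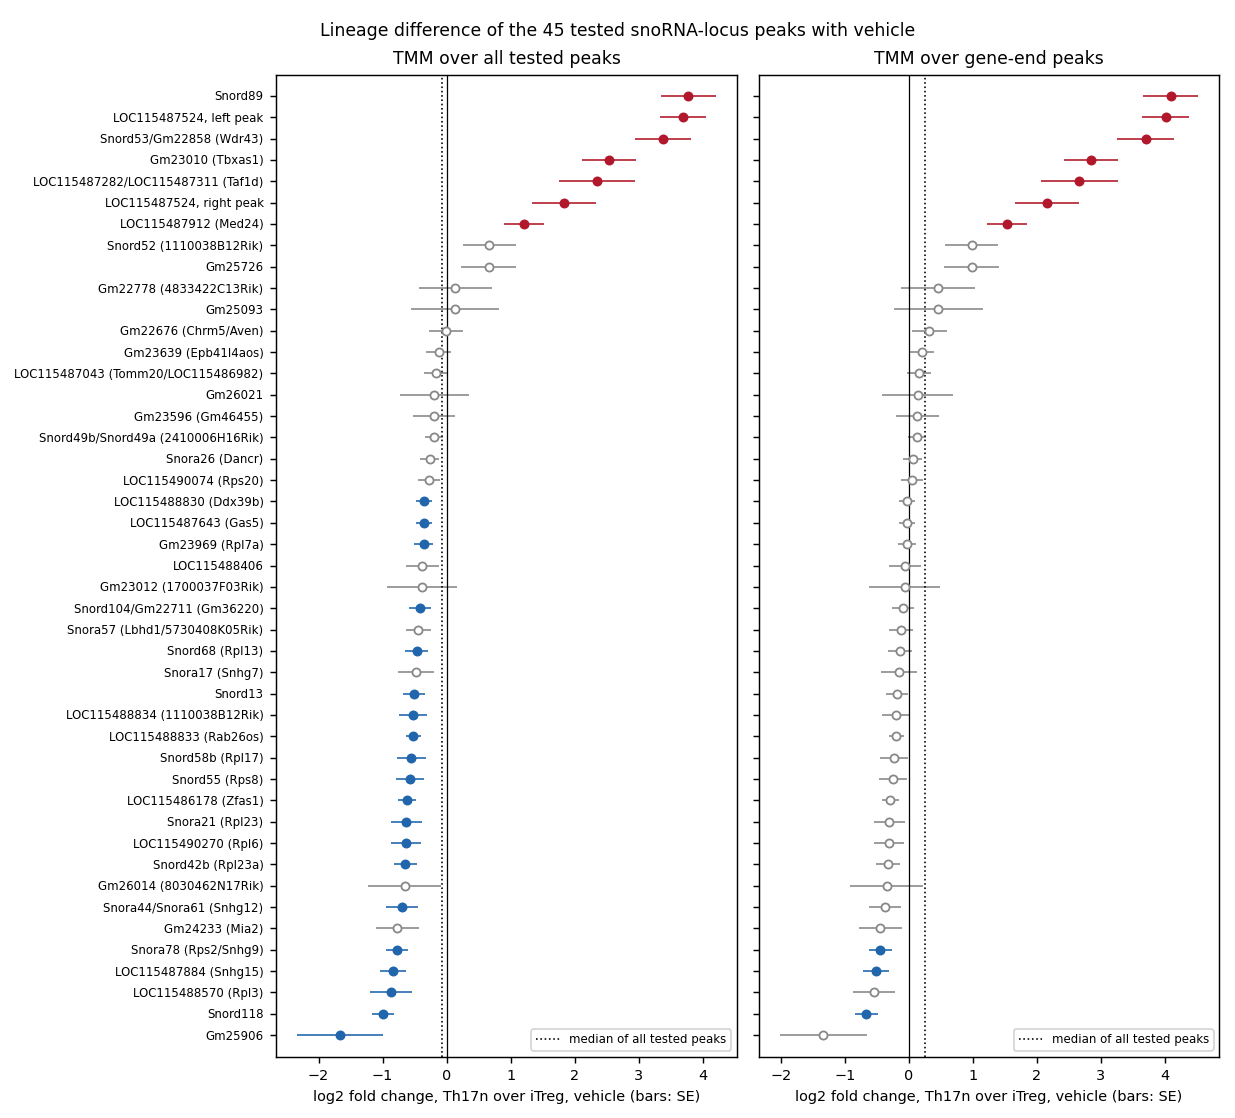
Log2 fold change of Th17n over iTreg cells with vehicle, with its standard error, for the 45 tested snoRNA-locus peaks under TMM factors from all tested peaks (left) and from gene-end peaks (right); filled points have an adjusted p below 0.05 and the dotted line is the median of all tested peaks. The 7 peaks at the top are called higher in Th17n in both panels, while 20 are called lower on the left and 3 on the right.

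With DFMO in both lineages the difference was narrower in count: 15 of 45 were called (33.3%; 5 higher, 10 lower in Th17n), against 37.2% of all tested peaks (22.5% higher, 14.7% lower), with medians of -0.23 and -0.00. Groups did not overlap for 22 (48.9%; 7 higher, 15 lower), against 45.5% of all (25.8% higher, 19.7% lower). With gene-end factors 9 were called, 7 higher and 2 lower. The 5 higher were Gm23010, the left peak of LOC115487524, Snord89, the Wdr43 peak and the Taf1d peak, all called with vehicle too. Gm23010 had 17.6, 13.2 and 20.1 CPM in Th17n DFMO libraries, against 3.01, 4.45 and 2.77 CPM in iTreg DFMO libraries (2.31 ± 0.42, adjusted p = 2.2e-05). The left peak of LOC115487524 had 17.2, 18.3 and 11 CPM in Th17n, against 3.61, 4.94 and 3.70 CPM in iTreg libraries (1.95 ± 0.37, adjusted p = 4.1e-05). Snord89 had 15.0, 15.3 and 12.3 CPM in Th17n, against 6.63, 0 and 4.31 CPM in iTreg libraries (1.98 ± 0.45, adjusted p = 0.00043). None of the 3 overlapped between lineages.

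The interactions of the last 2, the left peak of LOC115487524 at -1.74 ± 0.55 (adjusted p = 0.096) and Snord89 at -1.79 ± 0.66 (adjusted p = 0.17), were not called, so a smaller lineage difference with DFMO was not shown for them. The Wdr43 call (1.62 ± 0.52, adjusted p = 0.012) was lost without iTreg DFMO library 2 (0.0705) and on thinning (0.0501). The Taf1d call (1.46 ± 0.53, adjusted p = 0.025) was lost by DESeq2 (0.0529), without Th17n DFMO library 1 (0.0742) or 3 (0.0703) and without iTreg DFMO library 3 (0.255).

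Among the lower peaks with DFMO, the promoter of Dancr with the H/ACA gene Snora26 (chr5:74092576-74093547) had 57.3, 63.1 and 46.7 CPM in Th17n, against 113, 84.0 and 94.5 CPM in iTreg libraries. The groups were apart, and its change of -0.78 ± 0.16 (adjusted p = 9.6e-05) held in each of 18 alternatives, with -0.50 (adjusted p = 0.0101) for gene-end factors. With vehicle the difference was -0.27 ± 0.15 (adjusted p = 0.16) and the interaction -0.52 ± 0.22 was not called (adjusted p = 0.26). Rab26os had 141, 131 and 108 CPM in Th17n, against 172, 172 and 181 CPM in iTreg libraries (-0.46 ± 0.12, adjusted p = 0.0019). Snora78 had 55.3, 48.6 and 32.4 CPM in Th17n, against 75.3, 75.1 and 72.4 CPM in iTreg libraries (-0.67 ± 0.18, adjusted p = 0.0024). Neither overlapped, and with gene-end factors both lost the call (adjusted p = 0.255 and 0.0863).

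Gm36220 with Snord104 (-0.58 ± 0.18, adjusted p = 0.0075), Gas5 (-0.41 ± 0.13, 0.0094) and Gm25093 (-3.12 ± 1.08, 0.019) followed. Gm36220 was lost without iTreg DFMO library 2 (adjusted p = 0.0533), Gas5 without Th17n DFMO library 1 (0.0676), both also on thinning and with gene-end factors, and Gm25093 without Th17n DFMO library 1 (0.0622) or iTreg DFMO library 1 (0.0721). Snord118, lower in Th17n with vehicle, did not differ beyond its error with DFMO (0.04 ± 0.17, adjusted p = 0.88).

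Of the 46 gene-end peaks for snoRNP and ribosome biogenesis genes, 20 were called lower and 0 higher in Th17n with vehicle, and 19 lower and 0 higher with DFMO, with medians of -0.44 and -0.38. The shares called, 43.5% and 41.3%, compare with 44.6% and 37.2% of all tested peaks and with 36.3% and 28.8% of protein-coding gene ends. Dkc1 (-0.55, adjusted p = 0.0042) and Ncl, nucleolin (-0.44, adjusted p = 0.00094), were examples with vehicle. These directions, too, stand beside medians of -0.33 with vehicle and -0.27 with DFMO for all protein-coding gene ends and were obtained with factors from all tested peaks.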

How the data were processed

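The authors deposited 1 table of raw read counts for 48443 ATAC-seq peaks (mm10) in 12 libraries. Trimmomatic, FastQC, Bowtie2 and MACS2 were used, per the submitters' processing notes, with settings not given in the sources used here. Members and gene lists were chosen with earlier results of these data known.

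Peaks were joined to RefSeq genes (GRCm38.p6) by coordinates, without strand. A host is an lncRNA or protein-coding gene whose model contains the whole snoRNA gene, and a host-end peak holds its start or an end of its model. Counts were tested with edgeR 4.0.16 in R 4.3.3 (quasi-likelihood test, 4 group means, filterByExpr with a minimum count of 10, TMM factors), with Benjamini-Hochberg adjustment over 43726 peaks and a threshold of 0.05. The fit was tested on simulated data. Gene-end peaks lie within 1000 bp of an end of a protein-coding gene model, and "gene-end factors" are TMM factors from those peaks. The other alternatives were RLE factors, no filter, DESeq2 1.42.0, a block by animal, thinning to 1020937 counts, each library left out, and members that overlap the gene or lie within 1000 bp. Named peaks were those called for DFMO and, for the lineages, up to 6 per direction by adjusted p. Libraries of a number came from the same animal, per the labels, and the correlations of their deviations from the group means were -0.0549 to 0.0747 over 18 pairs. No 2 libraries of a group agreed within sampling noise (chi-square over degrees of freedom at least 2.08).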

Additional observations from a re-analysis of the deposited data

Results flagged for a closer look

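The DFMO effect on the Snord118 peak differed between the lineages by a test of the interaction itself. The difference, Th17n minus iTreg, was 1.03 on the log2 scale, with 1.22 in Th17n and 0.18 in iTreg cells. The Th17n vehicle group, at 30.6 to 31.4 CPM, was the one that stood apart. The interaction was lost in 8 of 18 alternatives, while the Th17n effect itself was lost in 0. Interactions of the same sign were called at 15.8% of tested snRNA-gene peaks and 3.97% of tested tRNA-gene peaks.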

How the results depend on the processing

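For the number of snoRNA-locus peaks called, thinning to the shallowest library gave 3 for DFMO in Th17n (main 7), 2 in iTreg (4), 0 for the interaction (1), 5 for the average (9), 11 for the lineages with vehicle (27) and 8 with DFMO (15). Gene-end factors gave 10 and 9 for the lineages with vehicle and with DFMO, and DESeq2 gave 16 with vehicle. Taking all 115 peaks within 1000 bp gave 15, 15, 31, 62 and 38 for DFMO in Th17n, in iTreg and averaged and for the lineages with vehicle and with DFMO. These are 14.7%, 14.7%, 30.4%, 60.8% and 37.3% of the 102 tested there, against 15.6%, 8.89%, 20.0%, 60.0% and 33.3% of the 45. Leaving out 1 library gave 3 to 11 for DFMO in Th17n, 2 to 5 in iTreg, 0 to 2 for the interaction, 6 to 7 for the average, 16 to 29 for the lineages with vehicle and 10 to 17 with DFMO. The causes were not tested. The replicate block by animal gave 7, 4, 1, 9, 27 and 15 calls in the same order as for thinning, so it changed no count, and 14 of the 15 peaks with DFMO were shared. Of 786 alternative values for 44 named peak and comparison pairs, 683 kept their call, 103 lost it and 0 reversed. Depth limits the weak peaks: 5 members failed the count filter, and Gm25093 was called on 0 to 13 counts per library. The right peak of LOC115487524 passed the filter through the Th17n vehicle group alone.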
